A study of Mus musculus with 16 samples.

Results

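A group of 9 long noncoding RNA genes was followed through RNA sequencing of cortical microglia, the resident immune cells of the brain. They were taken by name: Malat1, Neat1, Meg3, Kcnq1ot1, Gas5, Snhg1, Snhg8, Snhg12 and Mir155hg. Of the 9 genes, 7 had a row among the 53850 genes of the table, 6 were above 0 in at least 1 library, and those 6 passed the filter on low values (10 or more in 4 libraries or more). Snhg8 and Snhg12 are not analysed here. The microglia were isolated by cell sorting from the cortex of young C57BL/6J mice that carried no other allele named in the labels. The mice had eaten for 1 week either control chow or chow with PLX3397, which blocks CSF1R, the receptor whose signalling microglia need to survive. There were 4 groups of 4 libraries: males on PLX3397, males on control chow, females on PLX3397 and females on control chow. The microglia on PLX3397 are the cells that were still present after that week. Whether the samples within a group came from separate animals is not stated in the labels, so p-values measure the spread between these samples.

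Long noncoding RNAs act as RNA and are not translated into a working protein. Neat1 and Malat1 are neighbouring nuclear RNAs: Neat1 is the scaffold of paraspeckles, nuclear bodies that hold RNA-binding proteins and can grow when a cell is stressed, and Malat1 gathers in nuclear speckles, where splicing factors are stored. Meg3 and Kcnq1ot1 are imprinted, so that the copy from a single parent is transcribed. Gas5, Snhg1, Snhg8 and Snhg12 are host genes whose introns hold small nucleolar RNAs, the guides for chemical modification of ribosomal RNA, and Mir155hg is the precursor gene of miR-155, a microRNA induced in inflammation.

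The values are normalised read counts as deposited, and summed to between 32600000 and 44200000 a library. Each change is given as a log2 fold change ± SE, taken on log2(value + 1), and adjusted p-values come from limma with Benjamini-Hochberg adjustment over the 19594 genes tested. A gene is called at an adjusted p under 0.05. Several libraries stood apart. Male control replicate 4 had an Xist value of 515.7, where the other males had 14.7 to 31.4, and male PLX3397 replicate 3 had a summed value of 75470 over 12 neutrophil markers, where the other males on PLX3397 had 10700 to 18190. In 3 libraries the Malat1 row was near 0. The called genes named in the text were fitted again without the pair that stood apart by Xist or neutrophil markers, and again without the 3 libraries low in Malat1, and every call lost is given beside the gene.

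Neat1 was higher on PLX3397 in both sexes, and its groups did not overlap in either sex. In males on PLX3397 it read 10056, 11880, 11527 and 7179, and in males on control chow 4066, 3063, 3619 and 3361. In females on PLX3397 it read 9265, 7804, 4445 and 4732, and in females on control chow 2537, 3010, 1921 and 1803. Every library on PLX3397 was thus above every control library of its own sex, and also above every control library of the other sex. In females the PLX3397 libraries fell into a higher and a lower pair. The mean rose from 3527 ± 425 to 10160 ± 2139 in males (SD, n = 4) and from 2318 ± 563 to 6562 ± 2358 in females (SD, n = 4). These rises were 2.84-fold in males (log2 1.51 ± 0.23, limma adjusted p = 0.000364) and 2.75-fold in females (log2 1.46 ± 0.23, limma adjusted p = 0.000961). Both calls held under all 29 alternatives tried, with log2 changes of 1.42 to 1.69 in males and 1.27 to 1.63 in females. Some of the 29 left out only libraries of the other sex, which can alter the estimated spread but not the log2 change.

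**Figure D1:**
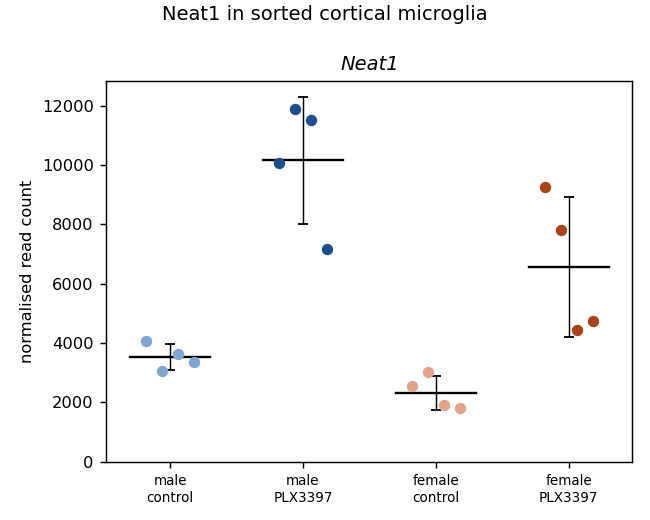
Neat1 in each of the 16 libraries, as normalised read count on a linear axis that starts at 0. Points are libraries, and bars are the mean and SD of 4. The PLX3397 libraries of each sex lie above all 8 control libraries.

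The test of the sexes' responses to PLX3397 against each other did not call Neat1. Its response in females minus that in males was -0.05 ± 0.33, with a 95% interval of -0.74 to 0.65 (limma adjusted p = 0.98). The level itself was lower in females at each chow without passing the test. Between controls the sexes did not overlap and the difference was -0.63 ± 0.23 (limma adjusted p = 0.924). Between the PLX3397 groups, which overlapped, it was -0.68 ± 0.23 (limma adjusted p = 0.103). That second difference was called when 1 library was left out, at -0.83 without male PLX3397 replicate 4 (limma adjusted p = 0.0476) and at -0.87 without female PLX3397 replicate 1 (limma adjusted p = 0.0432).

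Neat1 and Meg3 (below) were the 2 members called in males, where 11.7% of all genes were called. In females 1 member, Neat1, was called, where 5.34% of all genes were. With so few members, nothing is read from these shares. No member was called in the response of females minus that of males (0% of all genes, although 2010 genes had an unadjusted p under 0.05), between the sexes on control chow (0.0663%) or between the sexes on PLX3397 (5.43%). Mir155hg is left out of these statements, as no test is given for it (below).

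Other measures of the cells moved with PLX3397 beside Neat1. For the counts that follow, 11.7% of all genes were called in males and 5.34% in females. Of 14 microglia markers, 9 were lower in males, and in females 7 were lower and 1 was higher. Of 11 neutrophil markers tested, 9 were higher in males and 6 in females. Of the 9 in males, 2 (Ly6g and Retnlg) reached 10 in no control library, so they passed the filter through PLX3397 libraries alone, and 6 of the 9 were called without both libraries that stood apart, where Retnlg no longer passed the filter. The 12 listed markers had summed values of 10700 to 75470 in males on PLX3397 against 530.6 to 3668 in their controls, and of 1046 to 3493 in females on PLX3397 against 202.6 to 271.4 in theirs. Of 11 markers of border-associated macrophages, 7 were lower in males (4 without the 3 libraries low in Malat1) and 5 in females. Single genes from the marker lists of other brain cells were called too, few of each list. Mbp, a myelin protein gene, rose by 1.13 ± 0.18 in males (limma adjusted p = 0.000396) and 0.86 ± 0.18 in females (limma adjusted p = 0.00677). Aldoc, an astrocyte enzyme gene, rose by 1.27 ± 0.34 in males (limma adjusted p = 0.0223, and 0.0864 without both libraries that stood apart, 0.0705 without the 3 low in Malat1) and 1.95 ± 0.34 in females (limma adjusted p = 0.00219). Gfap, the intermediate filament gene of astrocytes, rose in females (5.09 ± 1.21, limma adjusted p = 0.0186) and differed by 3.65 ± 1.21 in males (limma adjusted p = 0.0633). They were 1 of 7 astrocyte markers called in males and 2 of 7 in females, while of 6 oligodendrocyte markers 1 rose in each sex and 1, Cnp, fell in males (limma adjusted p = 0.0155, and 0.076 without both libraries that stood apart). Pecam1, an endothelial adhesion gene, fell by 1.53 in males (limma adjusted p = 2.78e-05) and by 1.17 in females (limma adjusted p = 0.000675), as 1 of 4 endothelial markers tested. Flt1, Kdr and Cdh5, the others tested, were not called and did not fall with it in males. They differed by 1.151, 1.327 and 0.775 in males and by -0.368, 0.821 and -0.372 in females. Of oligodendrocyte markers that failed the filter, Mog was above 0 in 4 libraries and Cldn11 in 2. Of the endothelial ones, Cldn5, Ly6c1 and Slco1a4 were above 0 in 1 library each, and Tek in none. The share of mitochondrial transcripts was 0.591% to 0.676% in males on PLX3397, 0.297% to 0.325% in male controls, 0.355% to 0.455% in females on PLX3397 and 0.273% to 0.353% in female controls. Their part in the Neat1 result was not tested. Without male control replicate 4 and male PLX3397 replicate 3, the rise of Neat1 in males was 1.42 (limma adjusted p = 0.00615). In bulk samples such as these, more RNA per cell and another mix of cells cannot be told apart.

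The gene-level row of Neat1 sums its transcripts. GENCODE M21 lists a long form of 20771 bases (Neat1-201, chr19:5824708-5845478, minus strand, build GRCm38). It also lists a short form of 3004 bases in 2 exons (Neat1-202, chr19:5842307-5845476, minus strand), which starts at nearly the same base. The long form is the one that builds paraspeckles, and the short form ends at a polyadenylation signal. Their last 60 bases are shown, with those of Malat1, because the kit that made the cDNA primes on poly(A), and capitals mark the signal AATAAA where a search of these 60 bases found it.
Neat1-202 (chr19:5842307-5842366, minus strand): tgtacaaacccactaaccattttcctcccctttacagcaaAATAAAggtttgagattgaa
Neat1-201 (chr19:5824708-5824767, minus strand): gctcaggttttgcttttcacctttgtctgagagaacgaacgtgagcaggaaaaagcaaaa
Malat1-201 (chr19:5795690-5795749, minus strand): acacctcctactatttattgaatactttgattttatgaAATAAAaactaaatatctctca
The signal was found at the annotated end of Neat1-202 and of Malat1-201 and not at that of Neat1-201. Annotated ends do not show where these RNAs ended or were primed in these libraries. The values cannot say which form of Neat1 the reads came from.

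Genes for proteins of the bodies that Neat1 and Malat1 mark were followed too. Over all genes, 11.7% were called in males and 5.34% in females. Of 18 genes for paraspeckle proteins, 0 rose and 1 fell in males, and 0 were called in females. The median log2 change of the list was -0.05 in males, beside 0.02 over all genes, and 0.03 in females, beside -0.00. The gene that fell was Hnrnpk, which encodes an RNA-binding protein (27360 to 29570 in male controls, 17530 to 22020 in males on PLX3397, -0.56 ± 0.09, limma adjusted p = 0.000715). In females Hnrnpk differed by -0.09 ± 0.09 (limma adjusted p = 0.737). Sfpq and Nono, core paraspeckle proteins that bind Neat1, were not called. Sfpq differed by 0.05 ± 0.14 in males and 0.04 ± 0.14 in females, and Nono by -0.24 ± 0.15 and -0.15 ± 0.15. Of 19 genes for nuclear speckle proteins, 3 fell in males and 0 were called in females. They were the splicing factors Srsf1 (-0.62 ± 0.17, limma adjusted p = 0.0209) and Srsf6 (-0.43 ± 0.11, limma adjusted p = 0.02) and the splicing regulator Rnps1 (-0.32 ± 0.10, limma adjusted p = 0.0464). These 3 calls were not stable. Without both libraries that stood apart, Srsf6 was at an adjusted p of 0.057 and Rnps1 at 0.157 in limma, and without the 3 libraries low in Malat1, Srsf1 was at 0.0835 and Rnps1 at 0.142. The call of Hnrnpk held in both.

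Malat1 could be read in 13 of the 16 libraries. In males on PLX3397 it read 9678, 14774, 9280 and 23.5, and in male controls 12523, 11010, 6010 and 0.637. In females on PLX3397 it read 11824, 10379, 11885 and 0, and in female controls 7640, 4792, 12144 and 4698. The library near 0 was replicate 4 in each of the 3 groups that had one, and the other 13 libraries lay between 4698 and 14774. Because of these libraries the fit was imprecise. The log2 change was 1.15 ± 3.12 in males (limma adjusted p = 0.875) and -2.62 ± 3.12 in females (limma adjusted p = 0.758). In the libraries not near 0, the medians were 9678 on PLX3397 and 11010 on control chow in males, with 3 libraries each, and 11824 (3 libraries) and 6216 (4 libraries) in females. These medians leave out libraries by the value of Malat1 itself, so no test was made of them.

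A second gene lies inside Malat1 on the other strand. Gm37376, a 453-base gene model that the annotation marks as awaiting experimental proof, sits at chr19:5801941-5802393 on the plus strand. It lies wholly within the single exon of Malat1 (chr19:5795690-5802672, minus strand, GRCm38), over positions 280 to 732 of Malat1-201. The same 60 bases are shown as they read in each gene, 5′ to 3′, because a read from this stretch fits both genes unless its strand is known.
Malat1-201, positions 280 to 339 (chr19:5802334-5802393, minus strand): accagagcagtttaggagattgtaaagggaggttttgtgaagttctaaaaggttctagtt
Gm37376-201, positions 394 to 453 (chr19:5802334-5802393, plus strand): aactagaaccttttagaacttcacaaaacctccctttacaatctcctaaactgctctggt
The Nextera libraries do not mark strand, and the sources used here do not say how reads over both genes were assigned. The Gm37376 row was higher than the Malat1 row in all 16 libraries.

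In males on PLX3397 Gm37376 read 44118, 39180, 40028 and 27200, and in male controls 39191, 39269, 33231 and 34718. In females on PLX3397 it read 40093, 38284, 34188 and 13491, and in female controls 31884, 26753, 39307 and 40573. In the 13 libraries where Malat1 could be read, it made up 10.4% to 27.4% of the sum of both rows, and in the other 3 at most 0.0862%. The libraries near 0 for Malat1 still held 13491 to 34718 on the Gm37376 row, so reads at the locus were present there. With both rows added, an alternative chosen after seeing the data, the log2 change was 0.03 ± 0.35 in males (95% interval -0.70 to 0.77, limma adjusted p = 0.975) and -0.22 ± 0.35 in females (95% interval -0.95 to 0.51, limma adjusted p = 0.824). The intervals of the sum lie below the log2 change of 1.51 and 1.46 that Neat1, the neighbouring gene, showed in males and females.

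**Figure D2:**
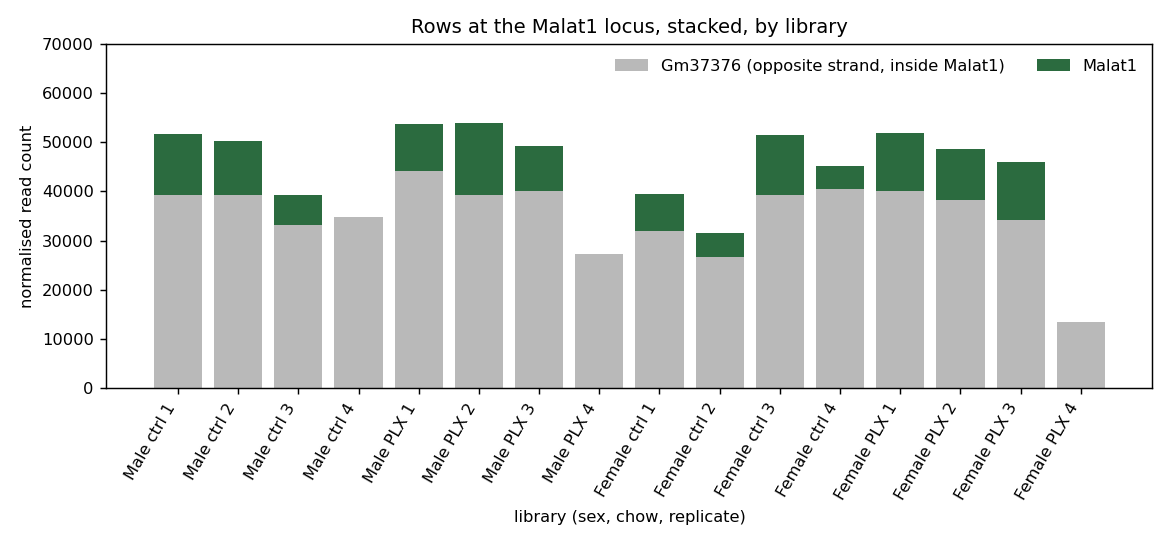
Normalised read counts of Gm37376 (grey) and Malat1 (green), stacked, in each of the 16 libraries, on an axis that starts at 0. Malat1 is missing from the bars of replicate 4 of both male groups and of the females on PLX3397, where the grey part remains at 13491 to 34718.

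Meg3 was low throughout and higher on PLX3397 in males. This RNA from the Dlk1-Meg3 imprinted domain is abundant in neurons. In males on PLX3397 it read 242.3, 85.7, 60.8 and 59.2, and in male controls 26.1, 23.8, 31.3 and 42.9. All 4 values on PLX3397 exceeded the 4 controls, and replicate 1 stood far above the other three. In females the values on PLX3397, 42.9, 49.1, 26.9 and 28.5, lay within the range of the controls, which read 24.1, 28.3, 33.8 and 61.6. The mean was 112 ± 87.7 against 31.0 ± 8.54 in males and 36.9 ± 10.9 against 36.9 ± 16.9 in females (SD, n = 4).

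The log2 change of Meg3 was 1.59 ± 0.44 in males (limma adjusted p = 0.0265) and 0.05 ± 0.44 in females (95% interval -0.89 to 0.98, limma adjusted p = 0.978). The call in males was lost under 8 of 29 alternatives. Without male PLX3397 replicate 1 the change was 1.13 (limma adjusted p = 0.08), and with male control replicate 2 left out it was 1.48 (limma adjusted p = 0.0749). The response of females minus that of males was -1.55 ± 0.63 and was not called (limma adjusted p = 0.401), so the sexes were not shown to differ in their response. On PLX3397 the females lay wholly below the males, by -1.36 ± 0.44 (limma adjusted p = 0.0853), which was not called either.

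Values of neurons are given beside Meg3 since sorted microglia can carry RNA of other cells. The 12 neuron markers summed to 531.4 to 901 in males on PLX3397 and 374.8 to 637.7 in male controls, and to 586.1 to 1002 in females on PLX3397 and 335 to 788.3 in female controls. None of the 10 that could be tested was called in either sex, and their median log2 change was 0.45 in males and 0.84 in females. Single neuron genes were present at low level: Snap25, which encodes a SNARE protein of synapses, read 84.6 to 413.9, and Camk2a, a kinase gene of excitatory neurons, 70.5 to 341.1. Rbfox3 read 93.75 to 252.7 in males on PLX3397 and 29.87 to 43.75 in male controls (1.869 ± 0.605, limma adjusted p = 0.0565). Camk2a read 108 to 269.2 and 70.5 to 96.75 in these groups (0.983 ± 0.330, limma adjusted p = 0.0661). Slc17a7 differed by 2.805 ± 1.205 in males, Tubb3 by 1.346, Nefm by 0.854 and Snap25 by 0.050. Gad1, Gad2, Nefl and Stmn2 went the other way, by -0.916, -0.564, -0.260 and -0.183. In male PLX3397 replicate 1, the library with the highest Meg3, Snap25 was at its highest and Syt1, the calcium sensor of vesicle release, at 0. Syt1 was at 0 in 10 libraries and highest in male PLX3397 replicate 4, at 112.1, and Camk2a was highest in a female library on PLX3397. In females the neuron sum of all 4 PLX3397 libraries exceeded that of 3 of the 4 controls, while Meg3 overlapped between these groups. The part of neuronal RNA in the male result was not tested.

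**Figure D3:**
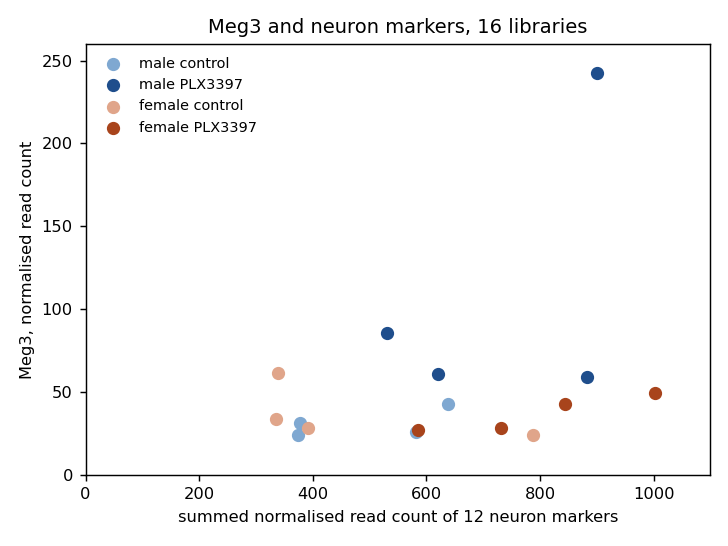
Meg3 against the summed normalised read count of 12 neuron markers in the 16 libraries, coloured by group. Male PLX3397 replicate 1, at 242.3 for Meg3 and 901 for the neuron sum, lies apart, while females on PLX3397 reach a neuron sum of 1002 with Meg3 at 49.1 or less.

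The rest of the Dlk1-Meg3 domain was hardly expressed. Of 5 further genes listed, 1 was at 0 in every library and only Rian, a noncoding RNA transcribed downstream of Meg3 from the same parental copy, passed the filter. Rian read 36.9 to 54.1 in males on PLX3397 and 37.1 to 63.6 in male controls, and differed by 0.02 ± 0.33 (limma adjusted p = 0.981). In females it differed by -0.49 ± 0.33 (limma adjusted p = 0.522). Dlk1, the paternally expressed gene of the domain, was above 0 in 1 library, at 1.92.

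Kcnq1ot1 was steady. This long antisense RNA starts in an intron of Kcnq1 and silences neighbouring genes on the paternal chromosome. It read 3429, 4609, 3914 and 3160 in males on PLX3397 and 2749, 3388, 3412 and 3692 in male controls. In females it read 4456, 2620, 3291 and 2474 on PLX3397 and 3069, 3265, 2566 and 2951 on control chow. All 4 groups overlapped. The log2 change was 0.18 ± 0.17 in males (95% interval -0.18 to 0.55, limma adjusted p = 0.57) and 0.08 ± 0.17 in females (95% interval -0.28 to 0.44, limma adjusted p = 0.879). Kcnq1, which overlaps it on the other strand, was listed at 0 in all 16 libraries.

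Of 11 other genes of the Kcnq1 domain, 7 were tested. Over all genes, 11.7% were called in males and 5.34% in females, and nothing is read from shares of so few. In males 2 fell: Cd81, which encodes a membrane tetraspanin (-0.55 ± 0.15, limma adjusted p = 0.0255), and Nap1l4, which encodes a histone chaperone (-0.43 ± 0.10, limma adjusted p = 0.00917). Without both libraries that stood apart, neither was called (limma adjusted p = 0.145 and 0.0752). In females 1 rose: Cdkn1c, an imprinted inhibitor of cyclin-dependent kinases that Kcnq1ot1 is known to silence. It read 704.4 to 1067 in controls and 1156 to 1657 on PLX3397, with no overlap (0.68 ± 0.17, limma adjusted p = 0.0265). In males Cdkn1c differed by 0.37 ± 0.17 (limma adjusted p = 0.203). The difference of the 2 responses was not called for any of the 7.

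Of the 4 members that host small nucleolar RNAs, Gas5, Snhg1, Snhg8 and Snhg12, only Snhg1 gave values above 0 here. Their spliced RNAs are short-lived, being removed by nonsense-mediated decay, and several begin with a run of pyrimidines like the mRNAs of the translation machinery. Gas5, the best studied of them, had a row at 0 in all 16 libraries. Among the 22 small nucleolar RNA genes with a row inside the 4 host genes, 22 were at 0 in all libraries too. With a listed 0 and no read counts, no level of Gas5 can be given.

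Snhg1 was lower on PLX3397 in both sexes without passing the test. In males on PLX3397 it read 15.6, 33.0, 14.5 and 0, and in male controls 199.1, 34.9, 88.5 and 14.6. In females on PLX3397 it read 6.07, 30.8, 0 and 42.1, and in female controls 55.7, 92.8, 84.2 and 35.6. The groups overlapped in both sexes, and male control replicate 1 was the highest library. The log2 change was -2.54 ± 1.18 in males (limma adjusted p = 0.202) and -2.69 ± 1.18 in females (limma adjusted p = 0.248). With the 3 libraries left out in which Malat1 was near 0, the change in females was -3.39 and was called (limma adjusted p = 0.0498), while that in males was -2.07 (limma adjusted p = 0.24). Single libraries moved it as much: the change was -1.45 in males without male PLX3397 replicate 4 (limma adjusted p = 0.466) and -1.58 in females without female PLX3397 replicate 3 (limma adjusted p = 0.528), each of which read 0. Over all alternatives it spanned -3.39 to -1.45 in males and -3.39 to -1.58 in females. Snhg1 rested on an estimated 0 to 203 reads a library, and male control replicates 1 and 3 had the most, 203 and 170.

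**Figure D4:**
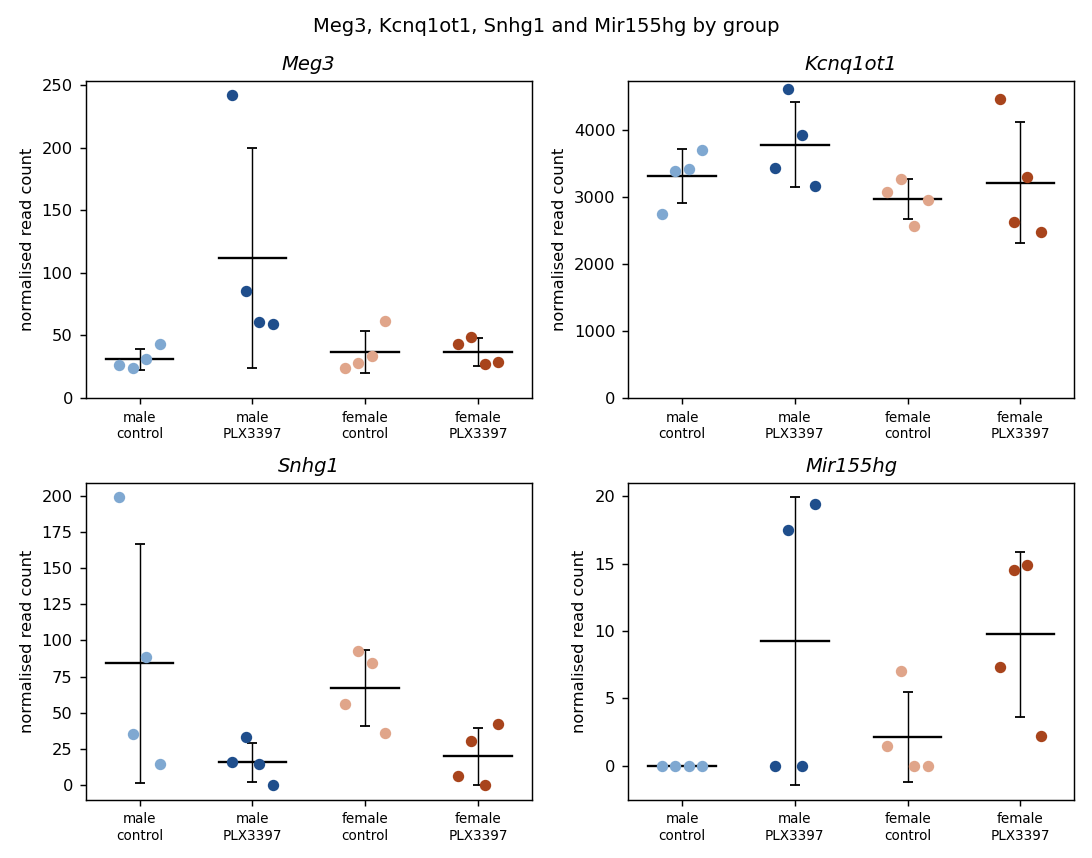
Meg3, Kcnq1ot1, Snhg1 and Mir155hg in each library, as normalised read count on linear axes that include 0. Points are libraries, and bars are the mean and SD of 4. Males on PLX3397 lie above their controls for Meg3, Kcnq1ot1 overlaps between all groups, and the low values of Snhg1 and Mir155hg overlap in both sexes.

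The starts of the 4 host RNAs are shown because a leading pyrimidine run is the feature they may share with translation genes. Each line gives 40 bases from the start in RefSeq (build GRCm38.p6), with the unbroken run of C and T at the start in capitals. RefSeq gives Gas5 an upstream and a downstream start.
Gas5, upstream start (chr1:161034601-161034640, plus strand): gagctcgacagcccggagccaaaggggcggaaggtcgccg
Gas5, downstream start (chr1:161035166-161035205, plus strand): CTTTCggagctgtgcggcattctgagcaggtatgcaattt
Snhg1 (chr19:8723487-8723526, plus strand): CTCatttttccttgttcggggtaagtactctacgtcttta
Snhg8 (chr3:123508297-123508336, minus strand): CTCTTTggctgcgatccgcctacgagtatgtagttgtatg
Snhg12 (chr4:132308678-132308717, plus strand): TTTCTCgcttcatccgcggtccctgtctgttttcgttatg
A start with C followed by pyrimidines to a run of at least 5 was found for Gas5 (downstream start) and Snhg8, 2 of the 4 hosts. Over 32851 RefSeq starts, 2.51% met this rule on the transcribed strand. Snhg12 has a run of 6 that begins with T, and Snhg1, the host with values, has a run of 3.

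Of 17 further host genes listed, 9 had a row and 8 were tested. In males 1 of the 8 was called, beside 11.7% of all genes, and in females 0, beside 5.34%. Snhg17 rose in males (144.7 to 303 in controls, 380.4 to 630.8 on PLX3397, 1.10 ± 0.32, limma adjusted p = 0.0351), and in females differed by 0.16 ± 0.32 (limma adjusted p = 0.875). The difference of the 2 responses was -0.95 ± 0.46 and was not called (limma adjusted p = 0.495). The rise of Snhg17 in males was 1.01 without both libraries that stood apart (limma adjusted p = 0.128) and 0.97 without the 3 libraries low in Malat1 (limma adjusted p = 0.143), and so was lost. The other 7 were not called. Snhg3, Snhg5, Snhg11 and Snhg14, at 138.6 to 1051, differed by -0.24 to 0.22 in either sex. Snhg15 differed by -0.09 in males and -0.51 in females, and the lower Snhg20 and Dancr by 1.51 and -0.47 in males and -0.47 and 0.21 in females, with SE of 1.58 and 1.24. Zfas1 read at most 5.88 and was at 0 in 11 libraries, so it failed the filter.

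Genes that act on or beside such host RNAs were followed as well, where 11.7% of all genes were called in males and 5.34% in females. Of 12 genes for proteins of small nucleolar ribonucleoproteins and their assembly, 0 were called in males. In females Ncl, which encodes the nucleolar protein nucleolin, rose by 0.40 ± 0.10 (limma adjusted p = 0.0237). Of 10 factors of nonsense-mediated decay, Upf2 rose in males by 0.56 ± 0.16 (limma adjusted p = 0.0263) and 0 were called in females. The call of Upf2 was lost without both libraries that stood apart (limma adjusted p = 0.0765) and without the 3 libraries low in Malat1 (limma adjusted p = 0.0677). Of 15 mRNAs that start with a pyrimidine run outside the ribosomal proteins, 0 were called in either sex, with a median log2 change of -0.01 in males and 0.17 in females.

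Mir155hg was at the limit of detection. It read 0, 17.5, 0 and 19.4 in males on PLX3397 and 0 in all 4 male controls. In females on PLX3397 it read 7.32, 14.5, 14.9 and 2.24, and in female controls 1.47, 7.02, 0 and 0. It passed the filter with exactly 4 libraries, all on PLX3397, so no test is given for it and its values are only a description. No more than an estimated 20.7 reads lay behind any value, and the groups overlapped in both sexes.

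The microRNA of this host gene comes from a hairpin at chr16:84714140-84714204 on the plus strand (RefSeq, GRCm38.p6). Its mature arms are shown, with the seed in capitals (bases 2 to 8, which pair with target mRNAs), because the targets followed next are read through the seed of the 5p arm.
mmu-miR-155-5p: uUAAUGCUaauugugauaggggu
mmu-miR-155-3p: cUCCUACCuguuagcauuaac
The row of the Mir155 gene itself was at 0 in all 16 libraries, and mature microRNAs are too short for this kind of library. The seeds of the arms differ, so they are not grouped.

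Of 10 genes reported as targets of miR-155, 1 rose and 3 fell in males, where 11.7% of all genes were called in either direction. Spi1, which encodes the myeloid transcription factor PU.1, fell by 0.34 on the log2 scale (SE 0.09, limma adjusted p = 0.0154). Maf, a transcription factor of macrophages, fell by 0.69 (SE 0.14, limma adjusted p = 0.0028), and Smad2, a signal transducer of TGF-beta, fell by 0.46 (SE 0.14, limma adjusted p = 0.0372). Ikbke, a kinase of the interferon and NF-kappaB pathways, rose by 4.77 ± 1.23 (limma adjusted p = 0.017), and read 1.19 to 127.4 in controls and 298.9 to 575.7 on PLX3397. Without both libraries that stood apart, Spi1 (limma adjusted p = 0.0861) and Smad2 (0.156) were not called, and without the 3 libraries low in Malat1, Ikbke (0.0516) was not. In females 1 of the 10 was called, beside 5.34% of all genes. Inpp5d, which encodes the lipid phosphatase SHIP1, fell by 0.42 (SE 0.09, limma adjusted p = 0.00964), and in males it differed by -0.11 ± 0.09 (limma adjusted p = 0.501). The median over the list was -0.34 in males and -0.08 in females, beside 0.02 and -0.00 over all genes.

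Other named long noncoding RNAs were followed for comparison. Of 30 listed, 23 had a row and 15 were tested. In males 1 rose and 2 fell, beside 11.7% of all genes called, and in females 0 were called, beside 5.34%. Lncpint, a noncoding RNA that p53 induces, rose in males (12.1 to 41.6 in controls, 63.8 to 78.0 on PLX3397, 1.74 ± 0.41, limma adjusted p = 0.00972). Trp53cor1, which p53 also induces, fell (348.4 to 613.1 in controls, 94.7 to 194.7 on PLX3397, -1.81 ± 0.36, limma adjusted p = 0.00267). Jpx, an activator of Xist, fell (158.9 to 300.2 in controls, 60.04 to 151.2 on PLX3397, -1.04 ± 0.30, limma adjusted p = 0.033), a call lost without the 3 libraries low in Malat1 (-0.62, limma adjusted p = 0.233). In females the same genes differed by 0.79 ± 0.41, -0.77 ± 0.36 and -0.84 ± 0.30, with limma adjusted p-values of 0.357, 0.273 and 0.138. Tug1, another abundant noncoding RNA, read 4385 to 7148 and was not called. The 2 genes of this list that differed between the sexes on each chow were Xist, which read 5542 to 10451 in females, and Tsix, which overlaps it on the other strand.

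The response of the members can be compared on a single scale. Intervals were narrow for Kcnq1ot1 and Neat1, wide for Snhg1 and widest for the Malat1 row, for which the plot shows the sum with Gm37376. Over the 16 libraries the median value per kilobase of exon was 1357 for Malat1, 204.9 for Neat1, 35.2 for Kcnq1ot1, 11.4 for Snhg1, 2.12 for Meg3 and 0.514 for Mir155hg. Per kilobase, Neat1 at 86.8 to 571.9 did not overlap Kcnq1ot1 at 26.6 to 49.5. Neighbours further down overlapped: Snhg1 spanned 0 to 67.1, Meg3 1.31 to 13.4 and Mir155hg 0 to 13.6. Malat1 lay above Neat1 in the 13 libraries where it could be read. The median of Malat1 includes the 3 libraries near 0, and its row leaves out the reads listed under Gm37376, the higher row in all 16 libraries. The lengths are those of all exons of a gene, so the level of a gene read mainly from a short form, as Neat1 may be, is understated.

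**Figure D5:**
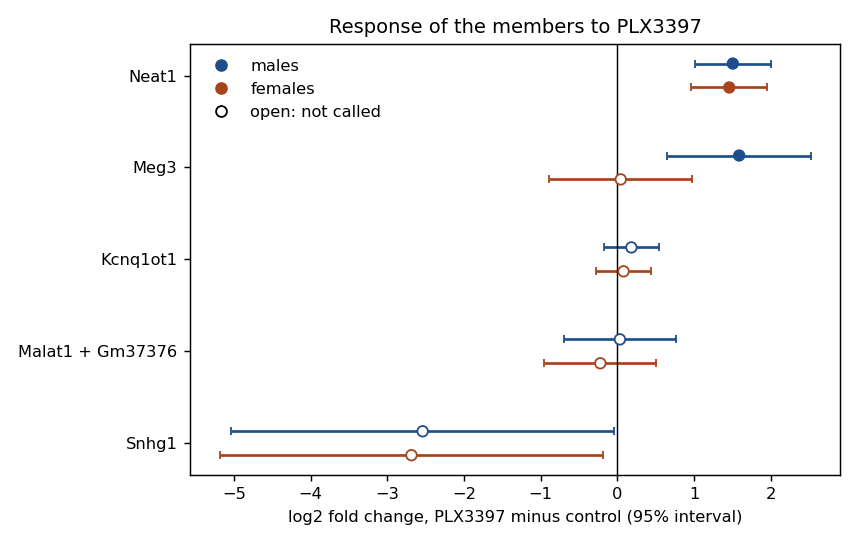
Log2 fold change on PLX3397 against control chow with its 95% interval for 5 members, in males (blue) and females (brown). Filled points passed an adjusted p under 0.05, which were Neat1 in both sexes and Meg3 in males. The intervals are not adjusted for the number of genes tested. Those of Kcnq1ot1, of the Malat1 and Gm37376 sum and of Meg3 in females include 0. Those of Snhg1, which was not called, do not (-5.041 to -0.039 in males and -5.187 to -0.185 in females).

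The genes whose values ran most like Neat1 over the 16 libraries were Slc25a27 (Pearson r of the log2 values 0.944), 5930430L01Rik (0.936) and Safb2 (0.934). All 16 points share the groups and the library depths, so these are descriptions without a test. Slc25a27, a mitochondrial carrier gene, had means of 413.1 in males on PLX3397, 235.1 in male controls, 344.7 in females on PLX3397 and 163.8 in female controls. Safb2, which encodes a nuclear RNA-binding protein, had means of 8728, 5881, 7883 and 5405 in the same order. For Meg3 the closest were Gigyf1 (0.886), Abca1 (0.849) and Gm43152 (0.835), and for Kcnq1ot1 Olfr418 (0.865), Cmah (0.858) and Gm45792 (0.855). Malat1 ran closest to Sult2b1 (0.884), Glis2 (0.856) and Gm47457 (0.834), with its 3 libraries near 0 included. Snhg1 ran closest to Ighj4 (0.916), Dip2b (0.877) and Plcg1 (0.875), and Mir155hg to Foxn2 (0.809), D630030B08Rik (0.804) and Chchd4 (0.792).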

How the data were processed

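Per the labels' protocols, RNA of sorted cortical microglia (500 pg) was amplified with a SMARTer kit and 150 pg of cDNA went into Nextera XT libraries. The deposited table holds a signal per gene and library, read counts normalised by the authors; low values step by 0.522 to 1.87 a read, which puts the depth at an estimated 22300000 to 77700000 reads a library. Tools named in the submitters' processing notes are Salmon 1.5.2, STAR 2.7.9a, featureCounts 2.0.1 of Subread and bcl2fastq 2.19.1, with the build GRCm39; the normalisation formula, the annotation release and the use of strand are not given in the sources used here. Whole reads were not recovered for every gene, so count models were not used.

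With a pseudocount of 1, log2 values were tested in R 4.3.3 by limma 3.58.1 (trend, 4 group means over 16 libraries, two-sided), for genes at 10 or more in at least 4 libraries, in 5 comparisons. The procedure was tested on simulated data. Figures were drawn with matplotlib 3.10.9. Names, exon lengths and overlaps came from GENCODE M21 (GRCm38), and sequences from it or from RefSeq GRCm38.p6; all printed coordinates are of these builds, not of the authors' build. RefSeq promoter windows were matched for 8 of the 9 genes. The rule for named genes took the 9 members and up to 4 called genes of each list with the smallest p (fewer are printed). For each member it also took the 3 genes with the highest Pearson r. Named in addition, after their values were seen, are Sfpq, Nono, Rian, Dlk1, Kcnq1, Tug1, Snhg3, Snhg5, Snhg11, Snhg14 and Zfas1. So are Snhg15, Snhg20, Dancr, Snap25, Syt1, Camk2a, Xist, Tsix, Gm37376, Flt1, Kdr and Cdh5. Rbfox3, Slc17a7, Tubb3, Nefm, Gad1, Gad2, Nefl, Stmn2, Mog, Cldn11, Cldn5, Ly6c1, Slco1a4 and Tek were also named after their values were seen. The members and lists were chosen with earlier results of these data known.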

Additional observations from a re-analysis of the deposited data

Results flagged for a closer look

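Of 27 groups of 4 libraries examined for Gm37376 and the members above 0, 2 held a library whose gap to the nearest other exceeded Dixon's 95% critical value for the share of the group's range. Chance gives this in about 1 in 20 groups. Malat1 read 0 in replicate 4 of the females on PLX3397, where the next library read 10379 and the gap was 0.873 of the range. Meg3 read 242.3 in replicate 1 of the males on PLX3397, where the next library read 85.65 and the gap was 0.855 of the range. The causes were not tested.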

How the results depend on the processing

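The 30 comparisons of a member include those of Mir155hg, which passed the filter through PLX3397 libraries alone, so its unchanged values say nothing about stability. Over the 30, 829 of 840 alternative values stayed on the same side of the threshold, 8 lost a call, 3 gained one and 0 called values changed sign. The 8 were Meg3 in males, so that 1 member was called there with no filter on low values (limma adjusted p = 0.0546), quantile normalisation (0.0551) or a fit to the groups compared (0.0589), and 1 to 2 when a library was left out. In females 2 members were called with the 3 libraries near 0 for Malat1 left out, a setting added after seeing the data, and between the sexes on PLX3397 0 to 1 when a library was left out. Values that were not called count as unchanged even where their sign changed. The response of females minus that of males changed sign in 10 of 29 alternatives for Snhg1 and in 8 for Neat1. Meg3 in females changed sign in 4. Deviations of libraries with the same sample number correlated by -0.045 to 0.115 over 24 pairs, and those with different numbers by -0.07 to 0.049 over 72 pairs. The 3 libraries near 0 for Malat1 all had the number 4. The labels do not say what the number marks, and whether libraries of the same number share a batch was not tested. With the number as a replicate block, the members called stayed at 2 in males and 1 in females, Meg3 in males was at an adjusted p of 0.0454, and 2136 genes were called in males.

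Counts over all genes moved more. In males 1517 were called without both libraries that stood apart. For the response of females minus that of males, 0 became 1 with a pseudocount of 5, 2 without both libraries that stood apart, 4 without the 3 libraries near 0 for Malat1, and 0 to 6 when a library was left out. Between controls of each sex it was 7 with voom weights and 11 to 20 when a library was left out. Between the sexes on PLX3397 it was 669 with no filter, 606 with upper-quartile scaling, 467 with quantile normalisation, 571 with equal totals, 44 in a fit to those groups alone, 339 without both libraries that stood apart, and 324 to 1232 when a library was left out. The causes were not tested. Refits of the called list genes without the libraries in doubt were also added after seeing the data, and lost calls stand beside the genes. Depth limits Snhg1 and Mir155hg, which rested on few reads, and a filter of 50 left Mir155hg untested.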
